A study of Homo sapiens with 4 samples.

Results

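A set of 9 genes that pathologists and drug developers use to recognise ovarian carcinoma cells was followed in a pair of cultured lines: PAX8, SOX17, WT1, CD24, CD44, FOLR1, MSLN, MUC16 and WFDC2. They were taken by gene name, and each of the 9 matched exactly 1 of the 38558 genes in the deposited table. The table holds 4 libraries, 1 per group: SKOV3 treated with YY-15, SKOV3 control, ES2 treated with YY-15 and ES2 control. SKOV3 and ES2 are established human ovarian cancer lines whose labels read epithelial cell and WT. YY-15 is a compound known here by its code name alone. Treatment lasted 48 h, the controls received no drug, and a dose of 4 µM for the treated libraries appears in the column headings of the table and nowhere in the labels. The sources used here do not say whether a library came from 1 culture dish or from several. With 1 library per group there was no replicate check, so no difference below carries a test or a p-value, and each compares a pair of libraries.

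PAX8 and SOX17 are transcription factors of the Müllerian duct, the embryonic origin of the fallopian tube, and they are retained in most epithelial ovarian carcinomas. WT1 is a zinc finger factor of the urogenital ridge that pathologists use to mark serous carcinomas. FOLR1, MSLN and CD24 encode surface proteins held by a glycosylphosphatidylinositol (GPI) anchor, CD44 encodes the main hyaluronan receptor, and MUC16 and WFDC2 encode the serum markers CA125 and HE4.

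The libraries held between 62522202 and 67431058 estimated counts, and 11781 to 12850 genes in each reached 1 FPKM (fragments per kilobase of gene length, corrected for library size). Where a gene had no counts, 3 counts served as the upper limit, which corresponds to 0.0445 to 0.0480 per 1000000 counts. The epithelial label was checked against 6 genes. KRT7 and KRT18, keratins of simple epithelium, lay between 97.7 and 153 FPKM in all libraries. KRT19, another keratin, was at 12.5 FPKM in SKOV3 YY-15 and 20.5 FPKM in SKOV3 control. In ES2 it was at 0.0363 FPKM with YY-15 and 0 in control. Of the 6, 4 reached 1 FPKM in at least 1 untreated line. On the FPKM + 1 scale 2 of these were at least 4-fold higher in SKOV3 control, where 4.81% of all genes were, and 0 at least 4-fold lower. EPCAM and CDH1, the defining epithelial adhesion genes, were at 1.15 and 0.547 FPKM in SKOV3 YY-15 and 0.752 and 0.207 FPKM in SKOV3 control, and both had a count of 0 in each ES2 library. Defining markers of leukocytes (PTPRC, at most 0.00591 FPKM) and endothelium (PECAM1, at most 0.0501 FPKM) were near 0 throughout. CD68, a lysosomal gene of the leukocyte list, was at 12.3, 8.11, 39.9 and 29.1 FPKM in SKOV3 YY-15, SKOV3 control, ES2 YY-15 and ES2 control, nearly the whole level of that list. The 6 fibroblast markers summed to 60.3 to 102 FPKM per library, most of it from COL1A1. CDH5, an endothelial cadherin, was at 16.3 FPKM in ES2 YY-15 and 19.5 FPKM in ES2 control.

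The deposited FPKM divides every gene by 1 fixed length. Across the 7545 genes with 1000 or more estimated counts in all 4 libraries, the length that links count to FPKM differed between libraries by a median of 0.0585%. For CD44, a gene with 34 listed transcripts and many splice forms, that length was 9.99 kb in all 4 libraries, close to the 10.0 kb that all its annotated exons span together. The values therefore describe total RNA of a gene and hold nothing on which CD44, WT1 or PAX8 isoform was made.

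In SKOV3 the most abundant of the 9 genes was CD24, followed by CD44 and PAX8, with FOLR1 and SOX17 next. In ES2 only CD44 reached 1 FPKM. The other 4 genes, WT1, MSLN, MUC16 and WFDC2, stayed under 1 FPKM in all 4 libraries, so WT1, mesothelin, CA125 and HE4 RNA was scarce or not detectable in both lines at this depth.

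**Figure D1:**
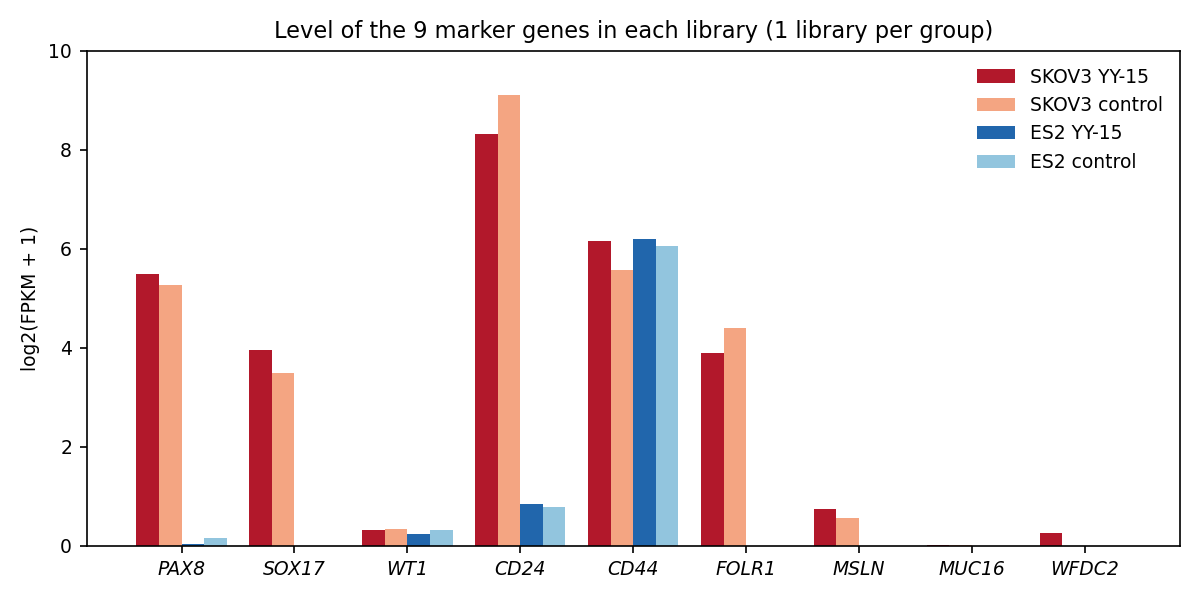
Level of each of the 9 genes, as log2(FPKM + 1) on the vertical axis, in the 4 libraries, 1 bar per library. CD44 stands at a similar height in all 4 libraries, whereas the bars of PAX8, SOX17, CD24 and FOLR1 are tall in the SKOV3 libraries and absent or under 1 in the ES2 libraries.

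PAX8 (ENSG00000125618, chromosome 2, 113215997 to 113278921, minus strand, GRCh38) was at 43.7 FPKM in SKOV3 YY-15 and 37.4 FPKM in SKOV3 control, against 0.0305 FPKM in ES2 YY-15 and 0.119 FPKM in ES2 control. These values rest on 21440 and 19710 estimated counts in SKOV3 and on 16 and 61 in ES2. The SKOV3 libraries thus stood far above the ES2 libraries whether treated or not. Between the untreated lines the log2 ratio of FPKM + 1 was 5.10. The share of all counts taken by PAX8 was 306-fold higher in SKOV3 control than in ES2 control, with an exact 95% interval of 7.90 to 8.65 on the log2 scale. Intervals here and below are of the log2 ratio of count shares and cover counting error only, so variation among cultures is not in them.

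With YY-15 the PAX8 log2 ratio of FPKM + 1 in SKOV3 was 0.22 (interval 0.20 to 0.26). In ES2, where PAX8 was nearly silent in both libraries, the share ratio on the log2 scale was -1.99 (interval -2.89 to -1.18), a difference between 16 and 61 counts. PAX8-AS1, a noncoding gene that overlaps PAX8 on the opposite strand over 58179 bases, had 8.24% of the PAX8 count in SKOV3 YY-15 and 11.8% in SKOV3 control. In ES2 its counts were 34 with YY-15 and 53 in control, beside the 16 and 61 of PAX8. The sources used here do not say whether counting used strand, so reads of PAX8 and PAX8-AS1 may not be told apart.

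SOX17 (ENSG00000164736, chromosome 8, 54457935 to 54460892, plus strand) was at 14.5 FPKM in SKOV3 YY-15 and 10.2 FPKM in SKOV3 control, and its count was 0 in both ES2 libraries. SOX17 therefore followed the same split between the lines as PAX8. With the SKOV3 count taken as exact and a floor of 3 counts in ES2 control, its SKOV3 control share was at least 539-fold higher. The interval of that ratio began at 8.77 on the log2 scale. In SKOV3 its 2261 counts with YY-15 and 1706 in control gave a log2 ratio of 0.47 (interval 0.42 to 0.61), under 2-fold.

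WT1 (ENSG00000184937, chromosome 11, 32387775 to 32435539, minus strand) did not separate the lines. It was at 0.241 FPKM in SKOV3 YY-15, 0.255 FPKM in SKOV3 control, 0.182 FPKM in ES2 YY-15 and 0.252 FPKM in ES2 control. The interval of the SKOV3 control over ES2 control ratio, -0.32 to 0.36, includes 0. The treated over control share ratio was -0.11 (interval -0.46 to 0.23) in SKOV3 and -0.50 (interval -0.88 to -0.13) in ES2, from 106 and 144 counts in the ES2 libraries.

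CD24, a short mucin-like adhesion protein, is encoded by ENSG00000272398 on chromosome 6 (106969831 to 106975627, minus strand). Its coding sequence is shown because a processed copy elsewhere in the genome, CD24P4, matches it at 99.2% of 243 bases, so reads from the coding part can be assigned to either gene. Capitals mark the 2 bases that differ in the copy. The sequence is from GENCODE 29 (GRCh38, chromosome 6, 106971664 to 106974646, minus strand, 2 coding parts joined).
CD24 coding sequence: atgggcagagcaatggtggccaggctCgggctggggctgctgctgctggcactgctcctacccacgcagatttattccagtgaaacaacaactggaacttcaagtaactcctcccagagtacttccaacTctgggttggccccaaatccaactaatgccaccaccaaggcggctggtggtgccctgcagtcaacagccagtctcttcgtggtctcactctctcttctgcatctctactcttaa
The CD24 copies in the table together held 0.249% of the CD24 count in SKOV3 YY-15 and 0.314% in SKOV3 control, so few reads were assigned to them there.

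CD24 was at 320 FPKM in SKOV3 YY-15 and 551 FPKM in SKOV3 control, against 0.798 FPKM in ES2 YY-15 and 0.717 FPKM in ES2 control. In SKOV3 it ranked 48 of all genes by FPKM with YY-15 and 33 in control. In ES2 it ranked 12376 with YY-15 and 13016 in control. In the untreated lines CD24 had the highest log2 ratio of all 14024 genes that reached 1 FPKM in at least 1 of them, 8.33, and its count share was 760-fold higher in SKOV3 control (interval 9.34 to 9.81). It stayed in place 1 in 6 of the 8 alternative calculations, and was in place 4 with a pseudocount of 0.1 and place 3 on scaled counts. Changing the filter or centring on the median could not move a gene from place 1.

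In SKOV3, CD24 had a log2 ratio of -0.79 with YY-15 (interval -0.80 to -0.77), from 65755 counts in the treated library and 121889 in the control. Of the 13294 genes reaching 1 FPKM in either SKOV3 library, 2.78% had a lower ratio. In ES2 the 177 and 152 counts gave a share ratio of 0.16 whose interval, -0.16 to 0.48, includes 0. The SKOV3 ratio minus the ES2 ratio was -0.85 on the scale of log2(FPKM + 1), under 2-fold. In bulk RNA, fewer cells that express a gene and less of its RNA per cell cannot be told apart.

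Bases upstream of 1 annotated RNA start each of PAX8 and CD24 are shown because these 2 genes, among those with an entry, differ most between the lines. They are from RefSeq (GRCh38.p14), 250 bases each, written in the direction of the gene. Capitals mark GC boxes (GGGCGG) and CCAAT boxes (CCAAT), searched on both strands.
PAX8 upstream, chr2:113278922-113279171, minus strand: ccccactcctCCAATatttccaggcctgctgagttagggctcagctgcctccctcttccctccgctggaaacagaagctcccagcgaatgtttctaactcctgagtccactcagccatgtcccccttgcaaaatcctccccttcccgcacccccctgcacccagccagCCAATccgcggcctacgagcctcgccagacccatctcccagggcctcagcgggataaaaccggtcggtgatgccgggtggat
CD24 upstream, chr6:106975628-106975877, minus strand: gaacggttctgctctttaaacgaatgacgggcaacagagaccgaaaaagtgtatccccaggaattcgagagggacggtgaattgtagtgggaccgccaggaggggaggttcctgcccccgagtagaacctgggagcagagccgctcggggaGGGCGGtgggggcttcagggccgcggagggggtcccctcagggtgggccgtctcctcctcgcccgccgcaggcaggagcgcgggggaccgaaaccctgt
The PAX8 stretch holds 2 CCAAT boxes and 11 CpG dinucleotides, and the CD24 stretch 1 GC box and 20 CpG dinucleotides. CD24 has further annotated RNA starts whose stretches differ. That of the start at 106975465 holds no GC or CCAAT box and 27 CpG dinucleotides. That of the start at 106974039 holds 1 GC box, 1 CCAAT box and 17 CpG dinucleotides. Of 35116 such stretches in the RefSeq table, 32.0% hold a CCAAT box and 42.6% a GC box, with a median of 11 CpG dinucleotides. The same stretch of CD44, the gene made in both lines, holds 2 GC boxes, no CCAAT box and 15 CpG dinucleotides. Of the 9 genes, 6 had an entry.

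CD44 (ENSG00000026508, chromosome 11, 35138882 to 35232402, plus strand) was at 70.5 FPKM in SKOV3 YY-15 and 46.6 FPKM in SKOV3 control, and at 72.4 FPKM in ES2 YY-15 and 65.0 FPKM in ES2 control. SKOV3 control was the lowest of the 4 libraries and the other 3 lay close together. The log2 ratio with YY-15 was 0.59 in SKOV3 (interval 0.58 to 0.62) and 0.15 in ES2 (interval 0.14 to 0.17), both under 2-fold and both above 0. SKOV3 control over ES2 control gave a log2 ratio of -0.47 (interval -0.50 to -0.46), lower in SKOV3 control. The SKOV3 ratio minus the ES2 ratio was 0.44. In SKOV3, 906 of 13294 genes had a higher ratio than CD44, and in ES2 2151 of 12341 did. Each of 3 overlapping genes took at most 0.138% of the CD44 count in any library.

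CD24 and CD44 are often read together, since carcinoma cells with much CD44 and little CD24 are used to enrich for tumour-initiating cells. The ratio of CD24 FPKM to CD44 FPKM was 4.53 in SKOV3 YY-15 and 11.8 in SKOV3 control, against 0.0110 in both ES2 libraries. The treated SKOV3 library therefore lay nearer to ES2 in this ratio than its control did, though still far above it. With YY-15 each of the genes was under 2-fold in SKOV3. A ratio of bulk RNA holds nothing on single cells or surface protein, so the share of such cells was not measured.

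FOLR1, folate receptor alpha, which carries folate into the cell and is the target of antibody-drug conjugates, is encoded by ENSG00000110195 on chromosome 11 (72189558 to 72196323, plus strand). It was at 13.8 FPKM in SKOV3 YY-15 and 20.1 FPKM in SKOV3 control, and its count was 0 in both ES2 libraries. With the SKOV3 count taken as exact, its share was at least 726-fold higher in SKOV3 control than in ES2 control. The interval of that ratio began at 9.20 on the log2 scale. With YY-15 the log2 ratio in SKOV3 was -0.52 (interval -0.63 to -0.44), from 1467 counts in the treated library and 2298 in the control. FOLR1P1, a pseudogene of FOLR1, held 3.95% of the FOLR1 count in SKOV3 YY-15 and 3.96% in SKOV3 control, and the related gene FOLR3 equalled 5.93% and 3.09% of it in the same libraries.

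MSLN, which encodes mesothelin, a binding partner of the MUC16 protein (ENSG00000102854, chromosome 16, 760734 to 768865, plus strand), was at 0.676 FPKM in SKOV3 YY-15 and 0.476 FPKM in SKOV3 control, from 117 and 89 counts. Both ES2 libraries had a count of 0. The share ratio with YY-15 in SKOV3 was 0.50 (interval 0.09 to 0.92). With the SKOV3 count taken as exact, SKOV3 control was at least 28.1-fold higher than ES2 control. The interval of that last ratio began at 4.48 on the log2 scale. MUC16 (ENSG00000181143, chromosome 19, 8848844 to 9010390, minus strand) was at 0.0157 FPKM in SKOV3 YY-15 and 0.0103 FPKM in SKOV3 control, with 0 counts in ES2. Its 47 and 33 counts gave a share ratio of 0.62 with an interval of -0.05 to 1.31, which includes 0. WFDC2 (ENSG00000101443, chromosome 20, 45469753 to 45481532, plus strand) had 20 counts (0.195 FPKM) in SKOV3 YY-15 and 0 in SKOV3 control, ES2 YY-15 and ES2 control. Against the floor of 3 counts, and with the 20 taken as exact, its share was at least 7.19-fold higher in SKOV3 YY-15 than in SKOV3 control. The interval of that ratio began at 2.41 on the log2 scale.

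Counts by size, here and for the gene lists below, are of log2 ratios of FPKM + 1, a scale on which a low gene can miss a size that its count share passes. Of the marker genes, 5 of the 9 genes reached 1 FPKM in at least 1 SKOV3 library and none of them was 2-fold different with YY-15, where 2.97% of all 13294 measured genes were. SOX17, PAX8 and CD44 were above 0 and CD24 and FOLR1 below 0, with a median log2 ratio of 0.22 against 0.02 over all genes. In ES2 only CD44 was measured by this rule and it was under 2-fold, where 0.835% of 12341 genes passed, 0.348% higher and 0.486% lower. On this scale none of the 5 differed by 2-fold between the SKOV3 ratio and the ES2 ratio, where 4.35% of 14607 genes did, 2.63% higher and 1.72% lower. Of untreated SKOV3 over untreated ES2, 4 of the 5 measured genes, PAX8, SOX17, CD24 and FOLR1, were at least 4-fold higher in SKOV3, where 4.81% of 14024 genes were, and 0 of the 5 were at least 4-fold lower, where 3.25% were (8.06% in either direction). With a pseudocount of 5 the count was 3, SOX17 being at 1.60. By count share, PAX8 differed between the lines' ratios by 2.22 on the log2 scale, on the few counts it had in ES2. A gene silent in ES2 could be measured here only through SKOV3, so the 4 genes that stayed under 1 FPKM in both lines belong beside this count.

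**Figure D2:**
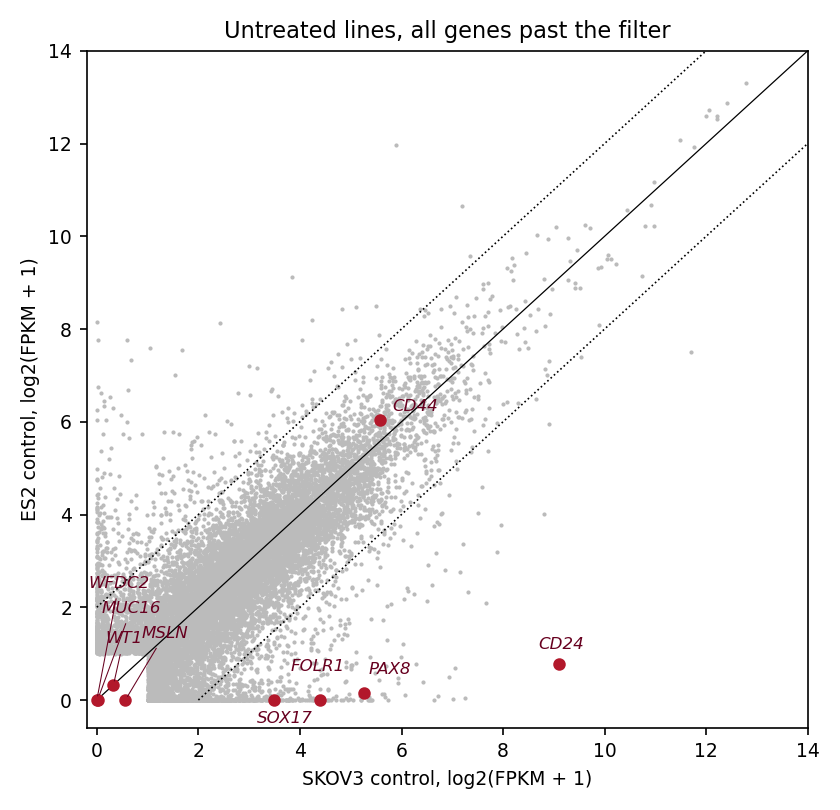
Levels in the untreated lines, as log2(FPKM + 1), of the 14024 genes reaching 1 FPKM in at least 1 of them (grey), with SKOV3 control on the horizontal and ES2 control on the vertical axis; red points are the 9 genes, 4 of them under 1 FPKM in both, the solid line marks equal levels and the dotted lines a 4-fold difference. CD24 lies furthest right of the lower dotted line, with PAX8, FOLR1 and SOX17 along the horizontal axis and CD44 next to the line of equal levels.

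**Figure D3:**
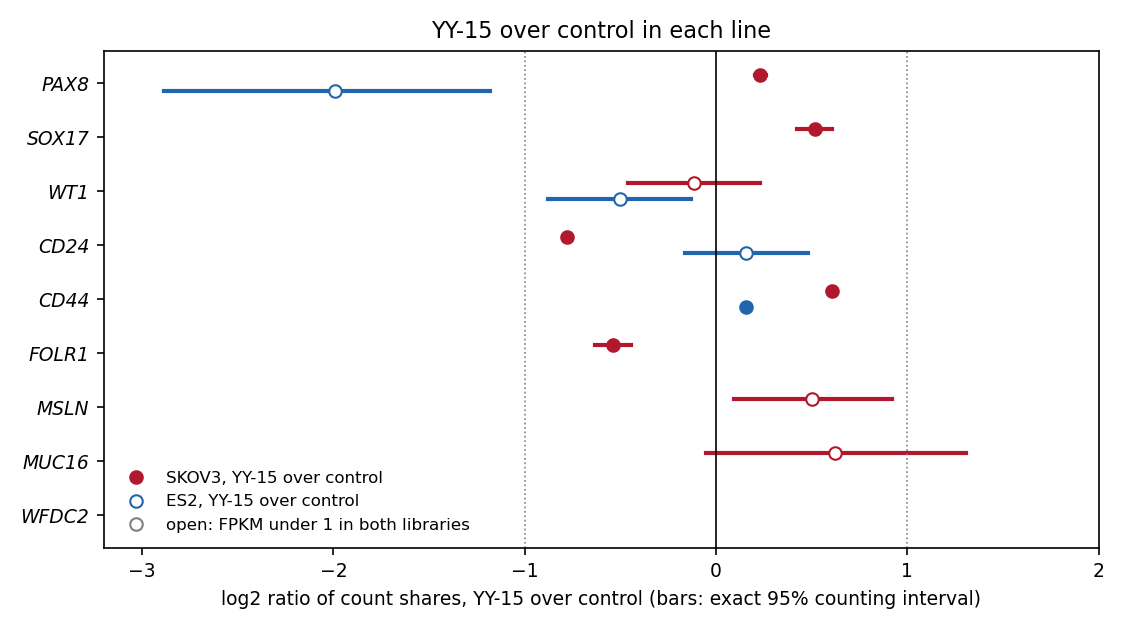
Log2 ratio of count shares, YY-15 over control, on the horizontal axis for each of the 9 genes in SKOV3 (red) and ES2 (blue), with exact 95% counting intervals as bars; open symbols mark genes under 1 FPKM in both libraries of that line, and a gene with a count of 0 in either library of a line has no symbol. All filled symbols lie between the dotted 2-fold lines, CD24 at -0.78 and CD44 at 0.60 in SKOV3 being furthest from 0.

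Other regulators of the urogenital tract were examined beside PAX8, SOX17 and WT1. Of 18 such genes in the table, 8 were measured in each treatment comparison. None reached 2-fold on the FPKM + 1 scale, where 2.97% of all genes did in SKOV3 and 0.835% in ES2. Of the untreated lines, 2 of 11 measured were at least 4-fold higher in SKOV3 and 1 at least 4-fold lower, against 4.81% and 3.25% of all genes. LHX1, a homeobox factor of the developing urogenital tract, was at 11.0 FPKM in SKOV3 YY-15 and 13.2 FPKM in SKOV3 control, against 0.106 FPKM in ES2 YY-15 and 0.184 FPKM in ES2 control. BNC1, a zinc finger protein of squamous epithelium, ran the other way, at 0.672 FPKM in SKOV3 YY-15 and 0.357 FPKM in SKOV3 control against 25.6 FPKM in ES2 YY-15 and 27.4 FPKM in ES2 control. GATA6, made in both lines, had log2 ratios with YY-15 of 0.70 in SKOV3 and 0.22 in ES2, and NR2F2 had -0.36 and -0.17. HOXA11 had -0.63 in ES2, where it was at 0.374 FPKM with YY-15 and 1.13 FPKM in control. By count share its log2 ratio there was -1.58 (interval -1.99 to -1.19), past 2-fold. HOXA11 and HOXA7 also passed 4-fold lower in SKOV3 control than in ES2 control by count share, at -3.23 and -5.60. PAX2, the closest relative of PAX8 in the kidney and oviduct, had 4 counts in SKOV3 YY-15 and 0 in the other libraries. SOX7, of the same SOX subgroup as SOX17, was at 2.98 FPKM in SKOV3 YY-15 and 4.42 FPKM in SKOV3 control and at 0.338 and 0.325 FPKM in ES2 YY-15 and ES2 control. SOX18, of that subgroup too, was at 1.18 FPKM in SKOV3 YY-15 and 1.04 FPKM in SKOV3 control, with 0 counts in ES2. Of 6 steroid receptor genes, only NR3C1, the glucocorticoid receptor, was measured in SKOV3, with a log2 ratio of 0.36, and none of the 3 measured in ES2 was 2-fold different (among them NR3C1 at -0.10 and NR3C2 at -0.04).

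Among 18 other surface antigens of ovarian carcinoma, 12 were measured in SKOV3 and 6 in ES2. None was 2-fold different with YY-15 in either line, where 2.97% of all genes were in SKOV3 and 0.835% in ES2. The medians of these antigens were 0.07 in SKOV3 and -0.03 in ES2. The cadherin gene CDH6 was at -0.65 in SKOV3. The tissue factor gene F3 was at 0.50 and CD47, the macrophage inhibitory ligand, at 0.40. In SKOV3 control over ES2 control, 6 of 11 measured were at least 4-fold higher in SKOV3 and none lower, where 4.81% and 3.25% of all genes were, among them ERBB2 at 7.21 and L1CAM at 5.19. The ERBB2 receptor gene stood at 143 FPKM in SKOV3 YY-15 and 152 FPKM in SKOV3 control and at 0.0824 FPKM in ES2 YY-15 and 0.0317 FPKM in ES2 control.

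Of 8 progenitor markers measured in the untreated lines, 2 were at least 4-fold higher in SKOV3 control and 4 at least 4-fold lower, where 4.81% and 3.25% of all genes were. ENG (-5.86) and the retinaldehyde dehydrogenase gene ALDH1A3 (-3.83) were lower in SKOV3, as was NT5E, which encodes the ecto-nucleotidase CD73 (-3.25). With YY-15 in SKOV3 the receptor gene KIT was at 1.28 FPKM, against 3.92 FPKM in control, a log2 ratio of -1.11. KIT was the 1 gene of 5 measured past 2-fold on the FPKM + 1 scale. Of all genes, 1.31% were at least 2-fold lower there and 1.66% higher. ALDH1A1, another retinaldehyde dehydrogenase gene, was at 0.196 FPKM in SKOV3 YY-15 and 1.05 FPKM in SKOV3 control, with 0 counts in ES2. Its ratio was -0.78 on that scale and -2.42 by count share (interval -2.97 to -1.91), 5.36-fold lower. NT5E was at 0.91 in SKOV3 and -0.12 in ES2. ENG, under 1 FPKM in both SKOV3 libraries, had 206 counts with YY-15 and 54 in control. Its count share ratio in SKOV3 was 2.04 (interval 1.60 to 2.50), 4.11-fold higher.

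CD44 binds hyaluronan, is linked to actin through ezrin, radixin and moesin, and is cut by ADAM10 and MMP14. Of 19 such partner genes, 12 were measured in each treatment comparison. In SKOV3 9 of them were below 0 and 3 above, with a median of -0.22, and 1 was at least 2-fold lower, where 1.31% of all genes were. That gene was HYAL3, a hyaluronidase family member, at 2.33 FPKM in SKOV3 YY-15 and 5.99 FPKM in SKOV3 control (-1.07). HAS3, a hyaluronan synthase, was at -0.58, the ezrin-related tumour suppressor NF2 at -0.64, and SPP1, encoding the CD44 ligand osteopontin, at 0.45. In ES2 none was 2-fold different, where 0.835% of all genes were, and HYAL3 was at 0.19. Of 13 measured in the untreated lines, 2 were at least 4-fold higher in SKOV3 control and 2 at least 4-fold lower. Among all genes 4.81% were higher and 3.25% lower by that size. The lower partner genes were SRGN, encoding the proteoglycan serglycin (-3.95), and MMP14 (-5.24). ESRP1 and ESRP2, which direct the inclusion of CD44 variant exons, were at 0.0987 FPKM or less in all 4 libraries.

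FOLR1 takes up folate, and the 12 other genes of folate uptake and use examined were all measured in SKOV3. Of these 2 were at least 2-fold higher with YY-15 and 2 at least 2-fold lower, where 1.66% and 1.31% of all genes were. The mitochondrial enzymes MTHFD2 (1.67) and SHMT2 (1.01) were higher, and thymidylate synthase TYMS (-1.24) was among the lower. TYMS was at 28.9 FPKM in SKOV3 YY-15 and 69.3 FPKM in SKOV3 control, and MTHFD2 at 25.9 FPKM in SKOV3 YY-15 and 7.45 FPKM in SKOV3 control. None of the 10 measured in ES2 was 2-fold different, where 0.835% of all genes were. The folate carriers SLC19A1 and SLC46A1 were both measured in SKOV3, at 0.01 and -0.08. Between the untreated lines 0 of the 12 reached 4-fold on the FPKM + 1 scale, where 8.06% of all genes did. SLC46A1 was at 1.30 there and at 2.61 by count share, past 4-fold.

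GPI anchors, which hold FOLR1, MSLN and CD24 on the surface, are built by the PIG and PGAP genes. All 17 were measured in SKOV3 and 16 in ES2, with medians of 0.09 in both. None was 2-fold different with YY-15 in either line, where 2.97% of all genes were in SKOV3 and 0.835% in ES2. PIGL (0.56) and PIGF (0.47) had the highest ratios in SKOV3. PIGU, a transamidase subunit, was at -0.34 in SKOV3 and 0.26 in ES2. PGAP3, which remodels the anchor lipid, was the 1 gene of 17 at least 4-fold higher in SKOV3 control than in ES2 control, at 31.7 FPKM against 0.677 FPKM, where 4.81% of all genes were. It lies on chromosome 17 at 39671122 to 39696797 and overlaps ERBB2, at 39687914 to 39730426 on the opposite strand.

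Genes with a WAP domain, other secreted markers and transmembrane mucins were examined beside WFDC2 and MUC16. Of 8 genes with a WAP domain, the fold that WFDC2 carries, only SLPI was measured in SKOV3. SLPI, a leukocyte protease inhibitor, was at 34.5 FPKM in SKOV3 YY-15 and 14.9 FPKM in SKOV3 control, a log2 ratio of 1.16, with 0 counts in both ES2 libraries. ANOS1 was the 1 WAP gene measured in ES2, at 1.06 FPKM with YY-15 and 1.34 FPKM in control (-0.18). Among 9 kallikreins and other secreted carcinoma markers, 2 were measured in SKOV3 and none in ES2. LCN2, an iron-binding lipocalin, was at 17.0 FPKM in SKOV3 YY-15 and 3.98 FPKM in SKOV3 control (1.85), and MMP7 had 0.21. Of 7 transmembrane mucins, MUC1 (0.35) and MUC20 (0.15) were measured in SKOV3 and none in ES2.

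**Figure D4:**
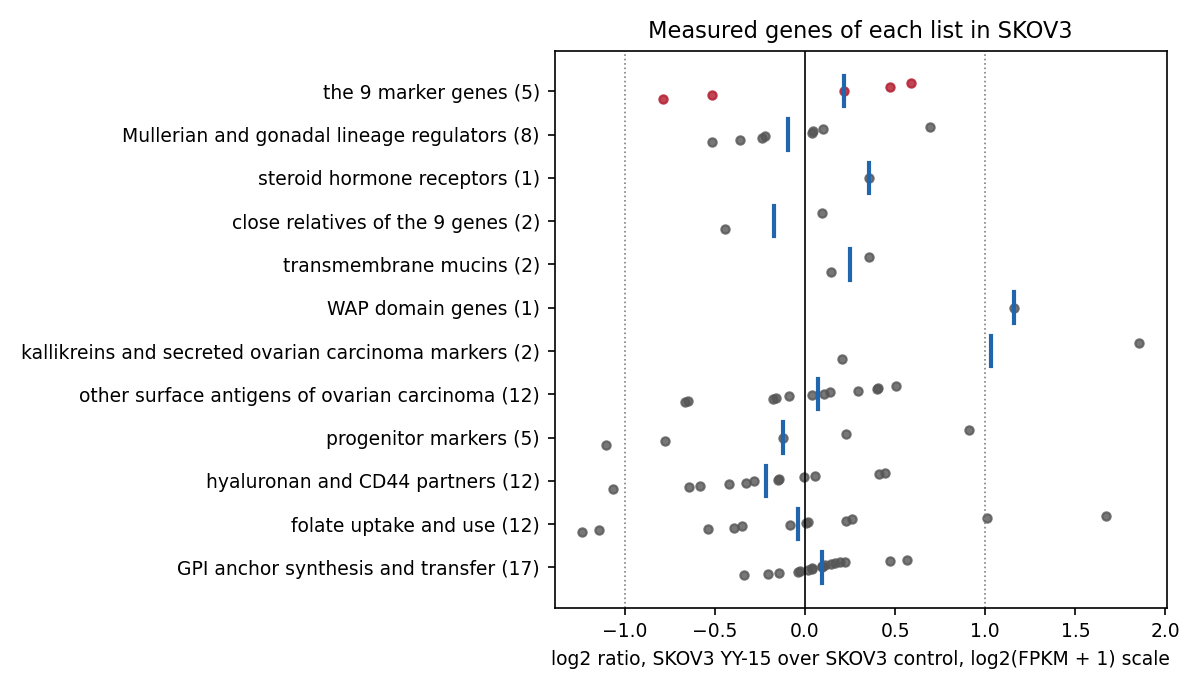
Log2 ratio of FPKM + 1, SKOV3 YY-15 over SKOV3 control, for each measured gene of the 9 and of 11 related lists, 1 point per gene; blue bars are medians, dotted lines mark 2-fold, and the number of measured genes stands in brackets. The 5 measured marker genes lie between -0.79 and 0.59, and points past a dotted line are in the WAP domain, secreted marker, progenitor, CD44 partner and folate lists.

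Markers of epithelium and mesothelium were examined beside the CD24 and FOLR1 values in SKOV3. Of 6 epithelial markers 5 were measured there, 4 of them below 0, and their summed level was 352 FPKM in SKOV3 YY-15 and 525 FPKM in SKOV3 control. KRT8 was at -1.08, the 1 gene of these 5 past 2-fold, and KRT19 at -0.67. Of all genes measured in SKOV3, 1.31% were at least 2-fold lower and 1.66% at least 2-fold higher. EPCAM was higher with YY-15, at 0.29 on the FPKM + 1 scale and 0.61 by count share (interval 0.28 to 0.94). CDH1, under 1 FPKM in both libraries, had a count share ratio of 1.38 (interval 1.02 to 1.75). Of 4 mesothelial markers 3 were measured, all below 0. The summed level of the list was 11.1 FPKM in SKOV3 YY-15 and 23.7 FPKM in SKOV3 control. KRT5 was at -1.45, the 1 past 2-fold, where 1.31% of all genes were at least 2-fold lower, and LRRN4 was at -0.95. In ES2 the summed epithelial level was 232 FPKM with YY-15 and 226 FPKM in control. The part of these genes in the CD24 and FOLR1 values was not tested.

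Genes whose pattern over the 4 libraries was nearest to that of each of the 5 measured genes were found by the distance between their centred log2(FPKM + 1) values, among 8429 genes reaching 5 FPKM in at least 1 library. Each distance rests on 4 points, 2 from each line. For PAX8 the nearest was SPINT2, a membrane protease inhibitor gene, at a distance of 0.04, then PCSK1N (0.16) and L1CAM (0.17). For SOX17 they were MAL2 (0.03), NID2 (0.07) and NGEF (0.08). For FOLR1 they were the keratin gene KRT19 (0.14), VAMP8 (0.15) and ANXA8L1 (0.16). The nearest to CD24 was ERBB2 at 0.91, followed by DHRS2 (1.06) and LINC02167. For CD44 they were MARCHF9 (0.04), POLR3D (0.05) and NOP53 (0.06).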

How the data were processed

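RNA of 4 libraries, 1 per group, was measured by poly(A)-selected paired-end sequencing, per the labels' protocols. The deposited table gives FPKM and estimated counts for 38558 genes, per the file headers. The submitters' processing notes list HISAT2 2.2.1, cutadapt 1.9, edgeR, DESeq2 and StringTie 2.1.6 without saying what each did, and name mm10, a mouse build. All identifiers are human: 35576 were found in GENCODE 29 (GRCh38) and 35536 of these overlapped the same gene there. The deposited counts are treated as estimated, because at 20 to 49 counts the implied gene length differed between libraries by a median of 2.49%, more than at high counts. All 8 columns of values were used.

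Ratios are log2((FPKM + 1)/(FPKM + 1)), which understate differences of low genes, over genes reaching 1 FPKM in at least 1 library compared. The size asked for was 2-fold, and 4-fold between the untreated lines. Exact Clopper-Pearson 95% intervals used the estimated counts and library totals. PCR copies are not independent molecules, so intervals and floors cover counting error only. The interval calculation was tested on simulated counts with counting error alone, for genes above a set level. That test did not cover genes with few or no counts, and the FPKM ratios were not part of it. The genes and lists were chosen with earlier results of these data known, and list genes were named by a fixed rule: up to 4 per list by mean absolute treatment ratio and 2 by the ratio between the untreated lines. A few genes of the lists are not reported here. A few further list genes (PAX2, LHX1, HOXA7, ESRP1, ESRP2, SLC19A1 and the cell type markers CDH1, KRT18, PTPRC and PECAM1) were named after their values were seen. Calculations used Python 3.11.15, numpy 2.4.6, pandas 2.3.3 and scipy 1.17.1.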

Additional observations from a re-analysis of the deposited data

Results flagged for a closer look

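With 1 library per group, opposite directions in the lines were listed where both counting intervals excluded 0, and none of these differences was tested. The search covered the 9 genes at any level, and list genes of the naming rule that reached 1 FPKM in both lines. List genes of the rule under 1 FPKM in either line were left out. Among them ENG, BNC1, ANOS1 and MUC1 also met the interval rule. For ENG the log2 share ratio was 2.04 in SKOV3 and -0.14 in ES2. PAX8 was higher with YY-15 in SKOV3 and lower with YY-15 in ES2, its log2 share ratio differing by 2.22 between the lines, on 16 and 61 counts in ES2. Among those list genes measured in both lines, the SKOV3 minus ES2 difference of log2 share ratios was 1.10 for NT5E, 0.63 for CD47 and 0.51 for NR3C1, each higher with YY-15 in SKOV3 and lower with YY-15 in ES2. It was -1.69 for HYAL3, -1.43 for TYMS, -0.65 for PIGU, -0.51 for KRT7 and -0.23 for SRGN, each lower with YY-15 in SKOV3 and higher with YY-15 in ES2.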

How the results depend on the processing

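No paired analysis was possible because each group has 1 library, and for the same reason no library could be left out. For the 5 genes measured in SKOV3 and for CD44 in ES2, the sign of every ratio was kept in all 8 alternatives: pseudocounts of 0.1 or 5, the filter dropped or set at 5 FPKM, rescaling to a sum of 1000000, centring on the median, scaled counts and, added after the data were seen, removal of the trend on GC content. Dropping or raising the filter leaves the ratio of each gene as it was, so those alternatives could not change a sign. In SKOV3 the CD24 ratio with YY-15 ran from -0.81 to -0.74, CD44 from 0.55 to 0.64, FOLR1 from -0.54 to -0.42, SOX17 from 0.36 to 0.55 and PAX8 from 0.20 to 0.27. CD44 in ES2 ran from 0.11 to 0.17. A size of 1.5-fold in place of 2-fold was reached by 2 genes in SKOV3, CD24 and CD44, and by 1, CD24, in the difference between the lines' ratios. The median over measured genes between the untreated lines, 4.40, was 7.42 at a pseudocount of 0.1, 2.33 at 5, 0.56 without a filter, 5.43 after rescaling, 4.72 on scaled counts and 4.28 with the GC trend removed. The median difference of ratios, 0.34, was 0.44 at a pseudocount of 0.1, 0.22 at 5 and 0.18 without a filter, and the ES2 median, 0.15, was 0.00 without a filter. Without a filter these medians include the genes near 0. Rescaling moved the median of all genes between the untreated lines to 0.21, against 0.07 as deposited, and of the difference of ratios to 0.17, against 0.06. The count of genes at least 4-fold higher in untreated SKOV3, 4, was 3 at a pseudocount of 5, without SOX17. Depth limits genes with few or no counts, among them MSLN, MUC16 and WFDC2 in all libraries and PAX8 in ES2.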
